A study of Homo sapiens with 4 samples.

Results

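Mitotic pluripotent cells were chosen by measured counts, as the cells with the highest summed counts of AURKA, UBE2C, KIF23, FAM83D, CENPA, CENPE, PLK1 and CCNB1 in cultures of H9, an established human embryonic stem cell line, before differentiation. In each day 0 library by itself, a cell was a barcode with at least 4000 UMIs (unique molecular identifiers, each a counted RNA molecule), at least 1000 genes, at most 20% of UMIs from mitochondrially encoded genes and at least 1 UMI of POU5F1. The highest 20% of these cells by UMIs of the 8 genes per 10000 UMIs are called high cells, and the lowest 20% low cells. There were 2533 high cells among 12671 analysed day 0 cells, 1440 of 7203 in the SIRT1 knockout (KO) library and 1093 of 5468 in the wild-type (WT) library, while all 4 libraries of the series held 22599 barcodes that met the other limits, without the POU5F1 requirement.

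The study took H9 cells carrying a SIRT1 deletion and unmodified H9 cells along a protocol towards dopaminergic neurons, with 1 droplet library of transcript 3′ ends per genotype at day 0 and at day 6. Only the day 0 libraries enter the comparisons here. The KO and WT cultures both grew in mTeSR1 medium on a Geltrex coat and were released with TrypLE, and the labels do not say whether KO cells came from 1 clone. With 1 library per genotype and cells that are no replicates, the values below come without tests or p-values. Ratios of summed counts carry exact conditional binomial (Clopper-Pearson) 95% intervals that cover counting error only, and ratios between genotypes compare the libraries, not the genotypes.

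A dividing cell copies its DNA in S phase, prepares for division in G2 and separates its chromosomes in mitosis. Entry into mitosis is driven by the kinase CDK1 bound to cyclin B, with Aurora and Polo kinases building the spindle, kinetochores linking chromosomes to it and the anaphase-promoting complex ending mitosis by marking cyclin B and other proteins for destruction. Many of these genes are held down early in the cycle and switched on late in it by the DREAM and MuvB complexes, MYBL2 and FOXM1, often through a promoter element called the CHR. Their mRNAs build up in G2 and last into mitosis, so counts of them mark cells of G2 and mitosis together. Pluripotent stem cells are known for a short G1 phase and fast cycles.

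The score ran in 1 continuous distribution in each library with no gap at the limit. The lowest-scoring member held 10.32 UMIs of the 8 genes per 10000 and the next cell outside 10.31 in the KO library, and these values were 10.99 and 10.97 in the WT library. Low cells reached at most 1.86 per 10000 in the KO library and 2.66 in the WT library. A high cell held a median of 15 UMIs of the 8 genes in the KO library and 23 in the WT library, against 1 and 2 in low cells. No UMI of any of the 8 was found in 547 KO and 134 WT cells, all of them low cells. All 8 genes were detected together in 178 KO high cells (12.4%) and 276 WT high cells (25.3%). These counts are not scaled for depth, and high cells had a median of 10220 UMIs in KO and 15240 UMIs in WT. Per 10000 UMIs, the median score of high cells was 14.17 in KO and 14.39 in WT.

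**Figure D1:**
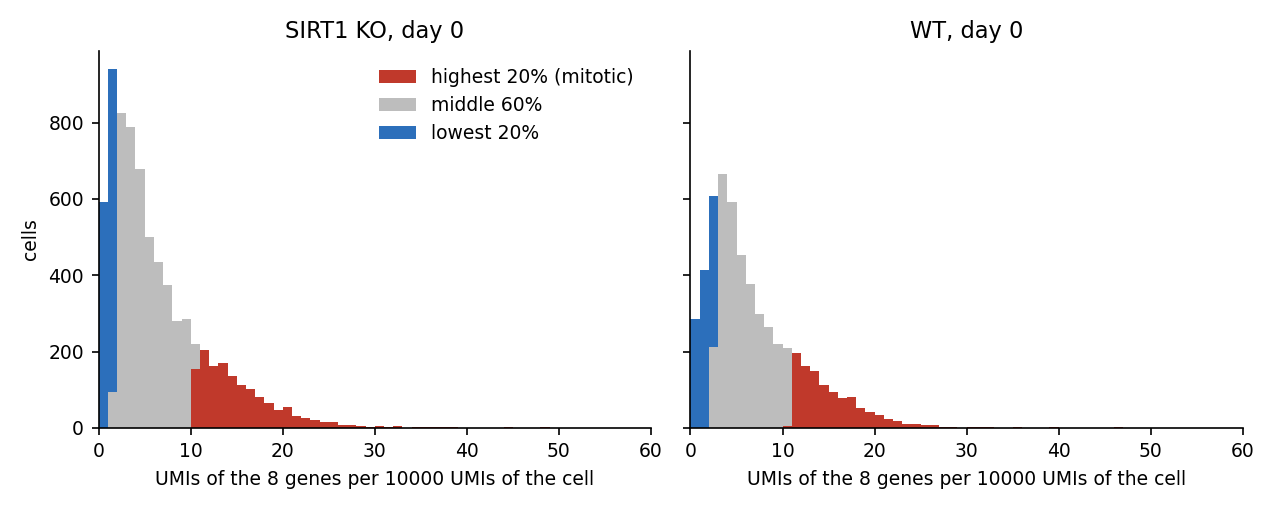
Number of cells (y axis) by UMIs of the 8 genes per 10000 UMIs of the cell (x axis, bins of 1) at day 0, in the KO library (left) and the WT library (right). Red marks the highest 20%, blue the lowest 20% and grey the cells between. The limits of the red group are 10.32 in KO and 10.99 in WT, and the distribution has no gap there.

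High cells were deeper than low cells in both libraries, and all levels below are per 1000000 UMIs of the class (CPM). The median was 10220 UMIs in high cells and 7115.5 in low cells of the KO library, a ratio of 1.44. It was 15240 UMIs in high cells and 11446 in low cells of the WT library, a ratio of 1.33. Genes detected per cell followed, with medians of 3553 in high and 2746.5 in low KO cells, and 4525 in high and 3689 in low WT cells. Cells among the deepest 5% of their library made up 1.88% of high and 0.764% of low cells in KO, and 8.05% of high and 1.28% of low cells in WT. Of the cells between high and low, they made up 7.47% in KO and 5.24% in WT. High cells thus held a smaller share of the deepest cells than the cells between in KO, and a larger share in WT. More RNA per cell and pairs of cells in 1 droplet cannot be told apart from these counts. Mitochondrially encoded genes held a median of 4.63% of UMIs in high and 4.70% in low KO cells, and 5.23% in high and 5.49% in low WT cells. KO and WT cells shared 17 barcodes, 0.236% of the KO and 0.311% of the WT cells.

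The high cells carried pluripotency markers at the level of the low cells. All 7 markers checked (POU5F1, SOX2, NANOG, LIN28A, DPPA4, TDGF1 and L1TD1) were at 10 CPM or more in high and low cells of both libraries, and their summed level was 2861 CPM in high and 2716 CPM in low KO cells and 3126 CPM in high and 3052 CPM in low WT cells. POU5F1, the core pluripotency factor that the choice of cells required, stood at 905 CPM in high and 932 CPM in low KO cells, and at 822 CPM in high and 843 CPM in low WT cells. Of 6 neural progenitor markers 1 (FABP7) reached 10 CPM, and of 8 mesoderm and endoderm markers 1 (NTS) did, in high and low cells of both libraries. Of 6 surface ectoderm markers 3 (KRT8, KRT18 and KRT19) reached 10 CPM in each of these classes. That set summed to 952 CPM in high and 856 CPM in low KO cells, and to 975 CPM in high and 1021 CPM in low WT cells. The mesoderm and endoderm markers summed to 47.1 CPM in high and 28.6 CPM in low KO cells and to 52.1 CPM in high and 33.3 CPM in low WT cells. Most of this was NTS, the neurotensin gene, which was called higher in high cells of both libraries, at 41.3 CPM in high and 26.6 CPM in low KO cells and at 36.0 CPM in high and 22.0 CPM in low WT cells. Few cells held much of the NTS count. The top 1% of cells held 60.5% of NTS UMIs in high and 38.8% in low WT cells, and 23.4% in high and 21.9% in low KO cells. TBXT was at most 0.725 CPM and SOX17 at most 0.131 CPM in these classes, and TBXT, SOX17 and GATA6 were at 0 in KO low cells and SOX17 in WT low cells. The part of these markers in the high to low ratios was not tested. SIRT1, the deleted deacetylase, had 7.43 CPM in KO high cells and 32.6 CPM in WT high cells, 4.37-fold lower in KO (3.58 to 5.42). The sources used here do not give the position of the deletion, so this 3′ count checks the label in part.

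The score genes are given as a description, since they chose the cells. AURKA, the kinase that matures centrosomes, had 243 CPM in high and 10.9 CPM in low KO cells, and 268 CPM in high and 20.1 CPM in low WT cells. CCNB1, the cyclin B subunit that activates CDK1, had 314 CPM in high and 22.0 CPM in low KO cells, and 266 CPM in high and 39.1 CPM in low WT cells. UBE2C, the ubiquitin-conjugating enzyme of the anaphase-promoting complex, was the highest of the 8, at 390 CPM in high and 23.4 CPM in low KO cells and at 452 CPM in high and 42.5 CPM in low WT cells. The others were PLK1, the Polo kinase of mitotic entry, KIF23, a kinesin of the central spindle, FAM83D, which holds casein kinase 1 at the spindle, CENPA, the histone H3 variant of centromeres, and CENPE, a kinetochore motor. These 5 lay between 79.6 and 173 CPM in KO high cells, between 3.92 and 11.04 CPM in KO low cells, between 72.0 and 146 CPM in WT high cells and between 6.97 and 16.3 CPM in WT low cells.

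Shares of cells with a UMI were compared after thinning each cell to 4000 UMIs. CCNB1 was then seen in 72.2% of high and 7.85% of low KO cells, and in 64.8% of high and 13.7% of low WT cells. Unthinned, these shares were 94.8% and 16.5% in KO, and 96.2% and 36.3% in WT. Free RNA, read from barcodes of 1 to 50 UMIs, if it made up 10% of the UMIs, would put CCNB1 in 6.08% of KO and 6.26% of WT cells, so the KO low cells stood near that level. PLK1 was seen in 50.6% of high and 3.33% of low KO cells, and in 42.5% of high and 6.31% of low WT cells, with 3.56% and 3.51% from free RNA.

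Among 8826 measured genes (10 CPM or more over all analysed day 0 cells of both libraries), a gene was called where the ratio of high to low cells was at least 1.5-fold with an interval excluding 1. In the KO library 250 genes (2.83%) were higher and 105 (1.19%) lower in high cells, and in the WT library 206 (2.33%) were higher and 88 (0.997%) lower. Higher calls were thus 70.4% of the KO and 70.1% of the WT calls; median-of-ratios scaling gave 195 higher and 140 lower in KO (58.2% higher) and 160 and 107 in WT (59.9%). Genes called in both libraries numbered 153 higher (1.73%), which is 61.2% of the KO and 74.3% of the WT higher genes, and 72 lower (0.816%), which is 68.6% of the KO and 81.8% of the WT lower genes. Of the 153, 85 (55.6%) stood in one of the cell cycle lists used here, and of the 72, 30 (41.7%). The 153 and the 85 both include the 8 score genes, whose place there was fixed by the choice of cells. The share of all measured genes that stand in these lists was not counted, so these percentages have no baseline. These calls come from the contrast that chose the cells and are read as a description of what went along with the 8 genes.

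**Figure D2:**
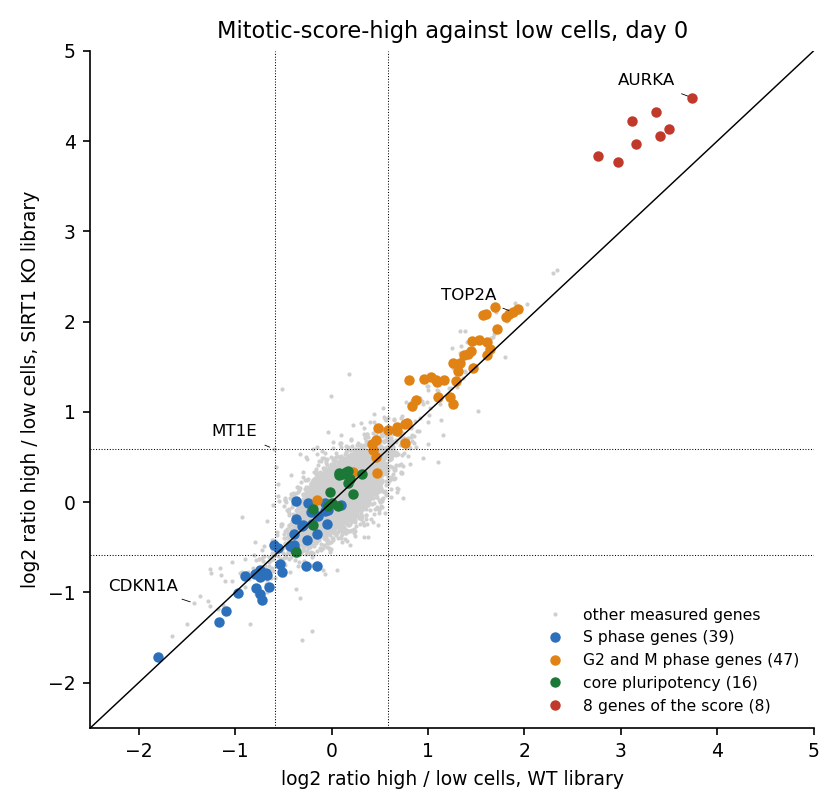
Log2 ratio of high to low cells for each measured gene, WT library on the x axis and KO library on the y axis; the line marks equal ratios and dotted lines 1.5-fold. The 47 G2 and M phase genes lie up and right of the grey cloud and many of the 39 S phase genes down and left. The 16 core pluripotency genes lie near 0. MT1H, at -4.10 in KO, lies below the axis. It had 4 UMIs in KO high and 55 in KO low cells, 31 of these in the highest cell.

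Among genes at 50 CPM or more over all analysed cells and outside the score, TOP2A, MKI67, CDK1 and CENPF had the largest ratios of high to low cells, taking the smaller of the KO and WT ratios. TOP2A, the topoisomerase that untangles sister DNA, had 1155 CPM in high and 268 CPM in low KO cells, 4.31-fold higher (4.14 to 4.48), and 1072 CPM in high and 291 CPM in low WT cells, 3.68-fold higher (3.55 to 3.82). MKI67, which coats mitotic chromosomes, had 295 CPM in high and 71.2 CPM in low KO cells, and 244 CPM in high and 69.5 CPM in low WT cells. CDK1, the mitotic kinase, had 213 CPM in high and 56.6 CPM in low KO cells and 158 CPM in high and 48.0 CPM in low WT cells, so it was 3.77-fold higher in KO (3.46 to 4.12) and 3.29-fold higher in WT (3.02 to 3.61). CENPF, a kinetochore and microtubule protein, had 577 CPM in high and 159 CPM in low KO cells, and 639 CPM in high and 199 CPM in low WT cells. The 11 further genes with the largest ratios in both libraries at 50 CPM or more were PRC1, GTSE1, HMMR, G2E3, ARHGAP11A, TPX2, DLGAP5, KPNA2, CKAP2, ASPM and CKS2, with log2 ratios from 1.42 to 1.82 in KO and from 1.31 to 1.65 in WT.

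By role, the genes of mitotic entry were mixed. Of 17 measured kinases, cyclins and phosphatases of entry, 10 were higher and 1 lower in KO, and 8 were higher and 1 lower in WT, with medians of 0.82 and 0.53 on the log2 scale against 0.06 and 0.05 for all genes. NEK2, a centrosome kinase, was among the higher ones, at 46.9 CPM in high and 13.5 CPM in low KO cells and 46.1 CPM in high and 15.9 CPM in low WT cells. CDC25A, the phosphatase of the G1 to S step, was the lower one, with 23.3 CPM in high and 38.6 CPM in low KO cells and 26.8 CPM in high and 41.3 CPM in low WT cells; it is named here, like CCNA2, after its values were seen. CCNA2, cyclin A, which acts from S phase on, had 148 CPM in high and 66.1 CPM in low KO cells and 122 CPM in high and 66.9 CPM in low WT cells.

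Most of the listed motors and cleavage genes were higher. Of 11 mitotic kinesins 10 were higher in KO and 9 in WT (medians 1.55 and 1.38), with KIF15 called in neither library and KIF22 in KO only. KIF14, a midbody kinesin, had 78.5 CPM in high and 18.2 CPM in low KO cells, and 73.0 CPM in high and 22.4 CPM in low WT cells. KIF2C, a kinesin that takes microtubules apart, had 96.7 CPM in high and 22.8 CPM in low KO cells, and 72.7 CPM in high and 23.9 CPM in low WT cells. Of 12 cytokinesis genes 9 were higher in both libraries (medians 1.35 and 1.00), and RHOA, MYH9 and MYH10, which serve the cell cortex throughout the cycle, were not called. RACGAP1, the partner of KIF23 in the central spindle, had log2 ratios of 2.16 in KO and 1.90 in WT. Of 23 spindle proteins 19 were higher in KO and 17 in WT (medians 1.27 and 1.10), led by DEPDC1 at 110 CPM in high and 18.9 CPM in low KO cells and 81.4 CPM in high and 16.5 CPM in low WT cells.

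The chromosomal passenger complex, which corrects wrong attachments under the kinase AURKB, had 6 of 7 listed genes higher in both libraries (medians 1.36 and 0.96). INCENP, its scaffold, had 65.1 CPM in high and 16.2 CPM in low KO cells, and 55.9 CPM in high and 15.8 CPM in low WT cells. SGO2, which guards centromeric cohesion, had 92.2 CPM in high and 20.2 CPM in low KO cells, and 96.7 CPM in high and 23.8 CPM in low WT cells. Centromere and kinetochore genes moved less as a list, with 11 of 32 higher in KO and 9 in WT (medians 0.24 and 0.16). HJURP, the chaperone that loads CENPA, NDC80 and KNL1, which bind microtubules at the outer kinetochore, were among those higher, with log2 ratios of 2.14, 1.63 and 1.26 in KO and 1.94, 1.37 and 1.22 in WT. The anaphase-promoting complex and spindle checkpoint list had 9 of 20 higher in KO and 8 in WT. Its E2 enzyme UBE2S had 860 CPM in high and 363 CPM in low KO cells and 704 CPM in high and 329 CPM in low WT cells, and the checkpoint kinases TTK and BUB1 were higher in both libraries. The core subunits ANAPC1, ANAPC5, ANAPC7, CDC16 and CDC23 were called in neither library. Condensin, cohesin and chromosome periphery genes were higher for 10 of 19 members in KO and 9 in WT, and centrosome genes for 3 of 12 in each, with CCP110, a cap of centrioles, lower in both.

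**Figure D3:**
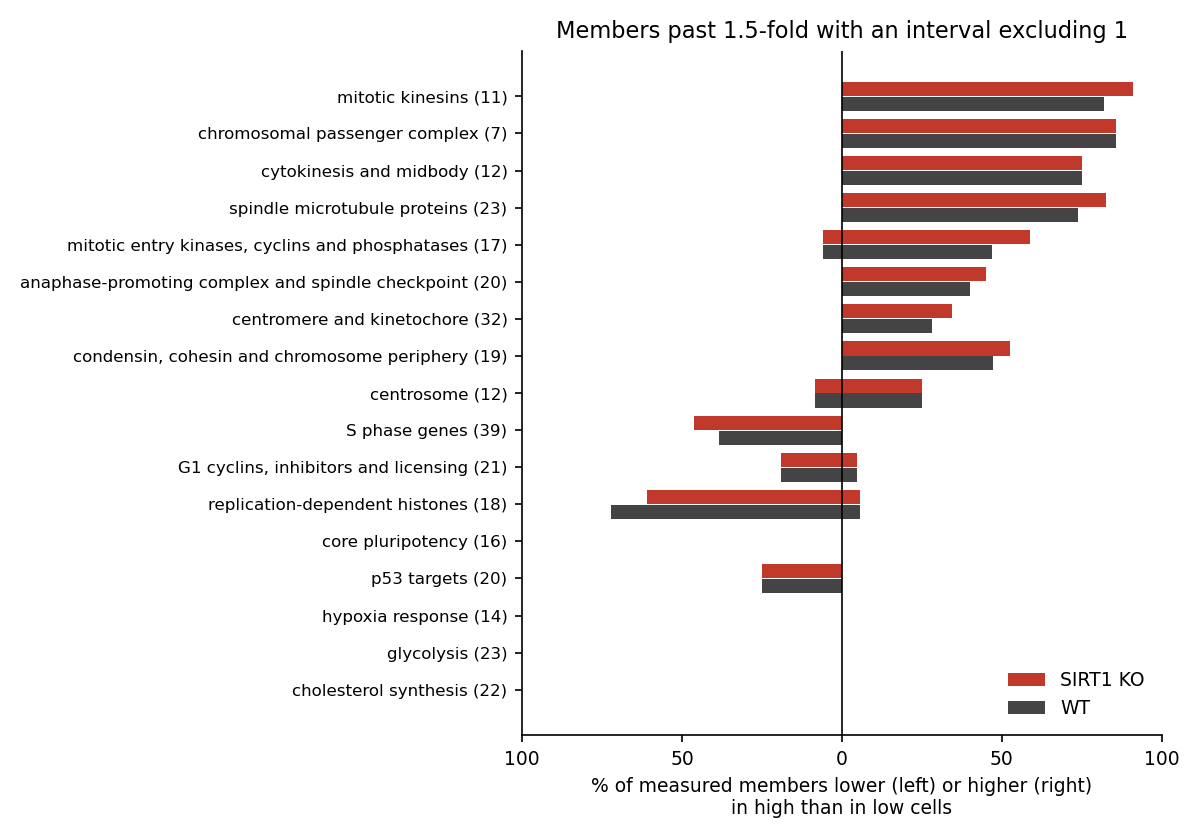
Percent of the measured members of each gene list (number in brackets) that were called higher (bars to the right) or lower (bars to the left) in high than in low cells, KO library above WT library. Kinesins, passenger complex, cytokinesis and spindle genes reach 74% to 91% higher, S phase and histone genes point left, and pluripotency, hypoxia, glycolysis and cholesterol lists have no bar.

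Part of the DNA replication genes were lower in high cells. Of 39 measured S phase genes 18 were lower in KO and 15 in WT, 14 of them in both, none was higher and the others were not called (medians -0.51 and -0.39). MCM6, a subunit of the replicative helicase, had 38.0 CPM in high and 95.4 CPM in low KO cells, 2.51-fold lower (2.27 to 2.79), and 45.2 CPM in high and 101 CPM in low WT cells, 2.24-fold lower (2.05 to 2.46). CDC6, which loads that helicase, had 40.9 CPM in high and 94.2 CPM in low KO cells, and 47.6 CPM in high and 102 CPM in low WT cells. DTL, which directs destruction of the licensing factor CDT1, and UNG, which removes uracil from DNA, were also lower in both libraries, with log2 ratios of -1.01 and -0.95 in KO and -0.97 and -0.78 in WT. E2F1, the transcription factor that drives S phase genes, had 12.4 CPM in high and 31.7 CPM in low KO cells, and 19.1 CPM in high and 34.4 CPM in low WT cells.

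Histone genes followed the S phase genes. Of 18 measured replication-dependent histone genes 11 were lower in KO and 13 in WT (medians -0.76 and -1.14), and 1, H2AFX, whose mRNA can also carry a poly(A) tail, was higher in both. HIST1H1D, a linker histone, had 27.8 CPM in high and 70.9 CPM in low KO cells, 2.55-fold lower (2.26 to 2.88), and 31.5 CPM in high and 89.2 CPM in low WT cells, 2.83-fold lower (2.55 to 3.15). Most mRNAs of this family lack a poly(A) tail, and the genes have near-identical copies, so counts from a poly(A)-based kit are a partial and uncertain sample of them.

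Across 5 equal groups of cells by score, these lists changed step by step. The 47 G2 and M phase genes outside the score summed to 4428, 4788, 5405, 6637 and 9291 CPM from the lowest to the highest score group in KO, and to 4644, 4915, 5501, 6713 and 8775 CPM in WT. The S phase genes summed to 3718, 3536, 3266, 2942 and 2725 CPM in KO and to 3776, 3767, 3586, 3167 and 2880 CPM in WT. The histone genes were highest in the second group, with 4679, 5127, 5045, 4682 and 3774 CPM in KO and 4974, 5228, 5073, 4500 and 3754 CPM in WT. The largest step of the G2 and M phase genes was thus the last one in both libraries, and the low cells were the group with the highest sum of S phase genes.

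**Figure D4:**
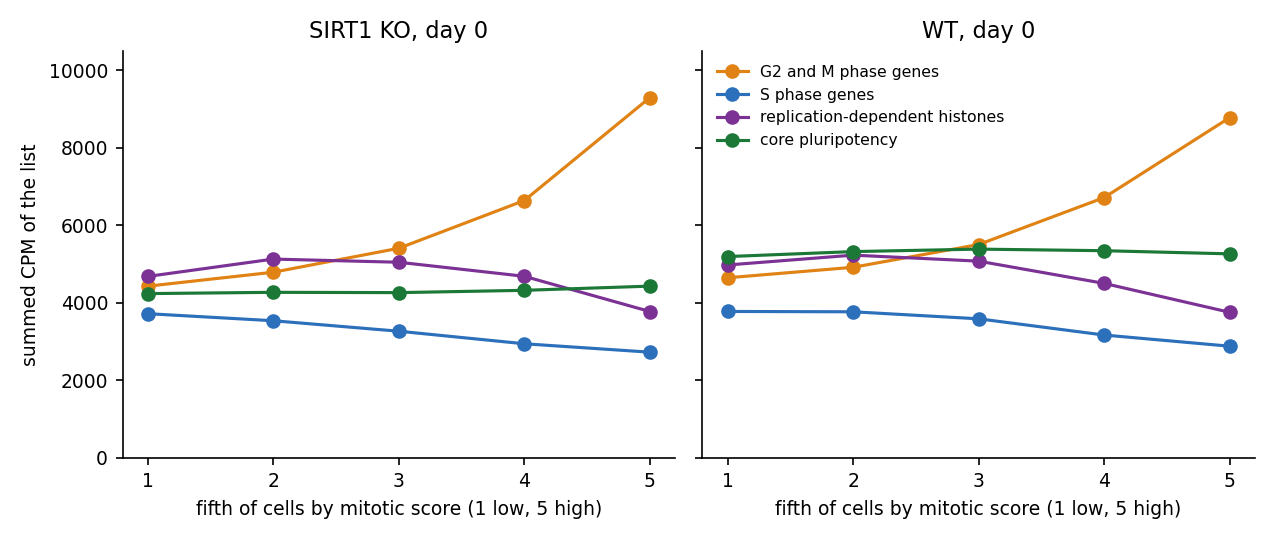
Summed CPM of 4 gene lists (y axis) in 5 equal groups of cells ordered by score (x axis, 1 lowest and 5 highest), KO library left and WT library right. G2 and M phase genes rise most into group 5, S phase genes decline throughout, histone genes peak in group 2 and core pluripotency genes stay nearly level.

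After thinning to 4000 UMIs, a high cell held a median of 36 G2 and M phase UMIs and 10 S phase UMIs in KO, and 35 and 11 in WT, while a low cell held 17 and 15 in KO, and 18 and 15 in WT. More G2 and M phase than S phase UMIs were found in 99.7% of high and 62.8% of low KO cells, and in 99.7% of high and 68.0% of low WT cells. Over all analysed cells this share was 81.4% in KO and 83.3% in WT. The gene lists differ in size, so the share does not assign a phase to a cell.

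Inhibitors of the cycle did not move together. CDKN1A, which encodes the p53 target p21, an inhibitor of cyclin-dependent kinases, had 38.4 CPM in high and 83.4 CPM in low KO cells, 2.17-fold lower (1.956 to 2.41), and 22.2 CPM in high and 59.6 CPM in low WT cells, 2.68-fold lower (2.37 to 3.05). CDKN1B, which encodes p27, was higher, at 36.9 CPM in high and 21.3 CPM in low KO cells and 32.5 CPM in high and 21.1 CPM in low WT cells. Of 20 measured p53 targets 5 were lower in both libraries, namely CDKN1A, GDF15, BTG2, BBC3 and SESN2, and none was higher. GDF15, a stress-induced cytokine, had 19.3 CPM in high and 49.3 CPM in low KO cells, and 16.3 CPM in high and 36.5 CPM in low WT cells.

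Several lists outside the cell cycle held no called gene. None of 16 core pluripotency genes was called in either library (medians 0.16 and 0.08), nor any of 14 hypoxia, 23 glycolysis and 22 cholesterol synthesis genes, 82 cytosolic ribosomal protein genes or 13 mitochondrially encoded genes. Of 15 chaperone genes the heat-inducible HSPA1B and DNAJB1 were higher in both libraries. HSPA1B had 15.1 CPM in high and 7.48 CPM in low KO cells and 30.3 CPM in high and 10.5 CPM in low WT cells, and its near-identical neighbour HSPA1A makes these counts uncertain. Of 10 immediate early genes 1 was higher and 3 lower in KO and 2 higher in WT, and KLF6, a transcription factor of this list, was higher in both libraries, with log2 ratios of 0.88 and 1.00. MALAT1, a nuclear RNA, had 4586 CPM in high and 3058 CPM in low KO cells, and 5950 CPM in high and 3833 CPM in low WT cells; its ratio was called in WT only, and the difference between libraries was -0.05 on the log2 scale (-0.07 to -0.02).

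Promoter sequence was set beside these calls, since the late cell cycle genes are known for the CHR element. RefSeq promoters of GRCh38.p14, from 250 bases before to 50 after the start, were searched on both strands for TTTGAA and TTTAAA, the core letters of the CHR, for CCAAT, the box bound by NF-Y, and for the E2F letters TTTGGCGC, TTTCCCGC or TTTCGCGC. Of the 145 genes higher in both libraries outside the score, 123 had an entry. TTTGAA was found in 58 of these 123 (47.2%) and in 1 of the 40 lower genes with an entry (2.50%), against 648 of 7123 measured genes with an entry (9.10%) and 15.4% of all 27305 promoters in the table. CCAAT was found in 82 (66.7%) of the higher and 22 (55.0%) of the lower genes, against 38.2% of measured genes and 35.7% of all promoters. The E2F letters were found in 3 (2.44%) of the higher and 11 (27.5%) of the lower genes, against 5.26% of measured genes and 2.79% of all promoters. TTTAAA was found in 21 (17.1%) of the higher and 5 (12.5%) of the lower genes, against 7.03% of measured genes and 12.3% of all promoters. A match is a run of letters in this window and not a bound site.

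The 110 bases before the start are shown for 4 score genes, for PRC1 and HMMR from the genes called higher in high cells, and for MCM6 and DTL from those called lower, 5′ to 3′ in the direction of the gene, with the letters searched in capitals. AURKA, UBE2C and FAM83D have no entry, and CENPE has an entry that is not shown. Of the 5 score genes with an entry, 3 held TTTGAA, 5 held TTTAAA, 4 held CCAAT and 1 held the E2F letters in the searched window. PLK1 lies at chr16:23678779-23678888 on the plus strand, CCNB1 at chr5:69167040-69167149 (plus), KIF23 at chr15:69414239-69414348 (plus), CENPA at chr2:26785946-26786055 (plus), PRC1 at chr15:90994536-90994645 (minus), HMMR at chr5:163460522-163460631 (plus), MCM6 at chr2:135876444-135876553 (minus) and DTL at chr1:212035638-212035747 (plus).
PLK1: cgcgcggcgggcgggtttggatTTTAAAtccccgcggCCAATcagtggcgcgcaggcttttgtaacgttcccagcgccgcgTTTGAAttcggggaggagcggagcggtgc
CCNB1: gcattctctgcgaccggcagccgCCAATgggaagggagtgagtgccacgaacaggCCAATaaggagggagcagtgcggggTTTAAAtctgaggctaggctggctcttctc
KIF23: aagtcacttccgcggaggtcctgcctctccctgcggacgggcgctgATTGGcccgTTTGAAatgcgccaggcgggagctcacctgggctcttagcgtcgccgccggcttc
CENPA: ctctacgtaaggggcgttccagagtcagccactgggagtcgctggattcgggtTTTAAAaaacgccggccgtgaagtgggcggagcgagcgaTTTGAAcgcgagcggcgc
PRC1: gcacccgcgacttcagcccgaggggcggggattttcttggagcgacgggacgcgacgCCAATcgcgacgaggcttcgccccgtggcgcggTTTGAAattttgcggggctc
HMMR: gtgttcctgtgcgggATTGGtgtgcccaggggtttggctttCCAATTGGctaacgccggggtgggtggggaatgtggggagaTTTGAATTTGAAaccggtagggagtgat
MCM6: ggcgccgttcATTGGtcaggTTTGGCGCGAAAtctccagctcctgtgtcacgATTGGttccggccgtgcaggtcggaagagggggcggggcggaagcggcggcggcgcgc
DTL: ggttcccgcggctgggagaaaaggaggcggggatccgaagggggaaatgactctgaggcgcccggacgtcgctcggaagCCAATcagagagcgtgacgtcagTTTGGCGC
PLK1 has TTTGAA 29 bases and CCAAT 73 bases before the start, counted to the first letter of each, and PRC1 has TTTGAA 20 and CCAAT 53 bases before it. CCNB1 has no TTTGAA here but TTTAAA 30 bases before the start, downstream of CCAAT at 87 and at 55 bases. HMMR holds TTTGAA in tandem, 28 and 22 bases before the start, and in KIF23 CCAAT is read on the opposite strand, as ATTGG. MCM6 and DTL show TTTGGCGC, 90 and 8 bases before the start, and no TTTGAA in these 110 bases; in MCM6 it overlaps a second E2F match on the opposite strand.

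The high cells also varied among themselves with depth. Split into 3 equal groups by UMIs, the KO high cells had medians of 6617, 10220 and 13629.5 UMIs, and their CCNB1 level was 374, 319 and 284 CPM from the shallowest to the deepest group. In WT high cells it was 314, 261 and 248 CPM. CDK1, its partner, ran the other way between the first groups, with 149, 247 and 219 CPM in KO and 117, 162 and 175 CPM in WT. CCNB1 is a score gene, and the score divides by the UMIs that split these groups, so its values are a description. Other score genes did not all follow it, as UBE2C had 355, 402 and 397 CPM and AURKA 242, 268 and 227 CPM in KO. CENPE, also a score gene, was highest in the shallowest group, at 125, 103 and 106 CPM in KO and 143, 118 and 123 CPM in WT. CDK1 is outside the score, but the score still chose the cells. Its counting intervals in the shallowest and deepest groups did not overlap in either library, and these intervals leave out the spread between cells. NANOG, a pluripotency factor, had 38.5, 45.9 and 51.1 CPM in KO and 40.4, 46.4 and 64.3 CPM in WT. The G2 and M phase genes as a sum differed less, at 9058, 9745 and 9090 CPM in KO and 8707, 8923 and 8699 CPM in WT. These genes were picked for display after an earlier look at the data, and cells of a group share 1 library.

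**Figure D5:**
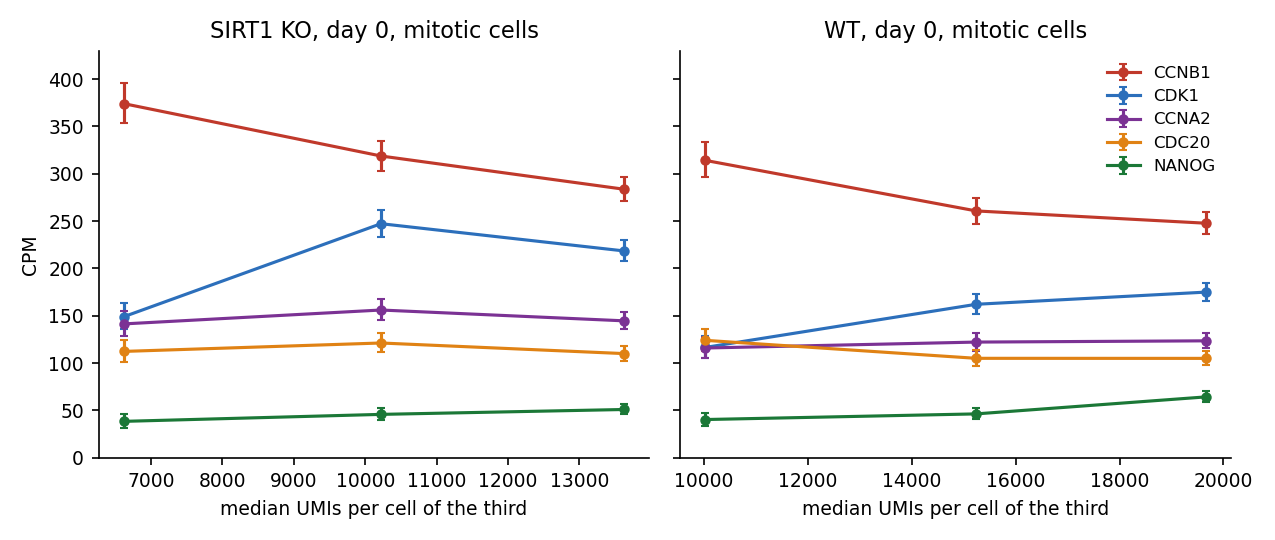
CPM (y axis) of CCNB1, CDK1, CCNA2, CDC20 and NANOG in high cells split into 3 equal groups by UMIs, placed at each group's median UMIs (x axis), KO library left and WT library right, with exact Poisson 95% intervals. CCNB1 declines with depth (374 to 284 CPM in KO, 314 to 248 CPM in WT) while CDK1 is lowest in the shallowest group.

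The KO and WT high cells were then compared with each other. Because the choice fixed 20% of each library, the number of members says nothing of how many KO and WT cells were dividing. At 1 common limit of 5 UMIs of the 8 genes in cells thinned to 4000 UMIs, 18.1% of KO cells (exact binomial 95% interval 17.2 to 19.0) and 19.7% of WT cells (18.6 to 20.8) were past it. With the 5 score genes that are not on chromosome 20 and a limit of 3 UMIs the order turned, to 19.6% of KO cells (18.7 to 20.5) and 18.4% of WT cells (17.4 to 19.5).

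None of the genes in the mitotic lists was called between KO and WT high cells, where 138 of all measured genes (1.56%) were higher in KO and 162 (1.84%) lower. In low cells 151 genes (1.71%) were higher in KO and 204 (2.31%) lower. CDK1 was 1.35-fold higher in KO high cells (1.28 to 1.42), which is under the 1.5-fold limit, and TOP2A 1.08-fold (1.06 to 1.10). The 8 score genes lay between -0.21 and 0.24 on the log2 scale in high cells, as a description of the cells they chose. CDKN1A was 1.73-fold higher in KO high cells (1.52 to 1.98), and E2F1 was 1.54-fold lower (1.28 to 1.85).

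Genes of hypoxia response, glycolysis and cholesterol synthesis were among those higher in KO high cells. The largest ratio at 50 CPM or more belonged to IGFBP2, an insulin-like growth factor binding protein, at 1061 CPM in KO and 420 CPM in WT high cells, and it was 1088 CPM in KO and 457 CPM in WT low cells. BNIP3, a hypoxia-induced mitophagy receptor, had 426 CPM in KO and 191 CPM in WT high cells, and PGK1, a glycolytic enzyme, 624 CPM in KO and 316 CPM in WT high cells. Of the hypoxia list 10 of 14 were higher in KO high cells and 9 in KO low cells, of glycolysis 7 of 23 in high and 9 in low cells, and of cholesterol synthesis 7 of 22 in each, so members of these lists were called in low cells as well. LINC01405 had the smallest ratio at 50 CPM or more, at 57.6 CPM in KO and 198 CPM in WT high cells, a log2 ratio of -1.78. Among KO cells with 3% or more of UMIs from chromosome 20, ranked anew, it was -0.99, and that of RPL39L, a ribosomal protein paralog, was -1.83 there, against -1.19 over all KO cells. Of 269 measured chromosome 20 genes 35 were lower and 1 higher in KO high cells, with a median of -0.26 on the log2 scale against 0.01 for all genes. AURKA, UBE2C, FAM83D, TPX2, E2F1 and ID1 lie on this chromosome. Chromosome 20 supplied 3% or more of the UMIs, leaving out ribosomal protein and mitochondrially encoded genes, in 35.3% of high and 24.4% of low KO cells, and in 98.4% of high and 93.5% of low WT cells. These shares count the score genes AURKA, UBE2C and FAM83D, which helped choose the cells, so they are a description. With the score genes and the G2 and M phase genes left out too, chromosome 20 held a median of 2.42% in high and 2.39% in low KO cells. In WT it then held 3.31% in high and 3.36% in low cells. How far the chromosome 20 share enters the score was not tested.

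The ratio of high to low cells was then set against itself between the libraries. It was larger in KO for 30 genes (0.34%) and smaller for 21 (0.238%) by at least 1.5-fold with an approximate interval excluding 0. All 8 score genes were among the 30, which is read as a description only, since they chose the high and low cells in each library. Their differences ran from 0.64 to 1.10 on the log2 scale and moved widely over the alternatives, from 0.04 to 2.24 for AURKA, from 0.08 to 4.66 for FAM83D and from -0.18 to 1.57 for KIF23. None of the 47 G2 and M phase genes outside the score was called here, with a median difference of 0.21. Outside the score the largest differences at 50 CPM or more were those of the metallothioneins MT1E (1.19) and MT2A (0.96), ID1 (0.77) and MIR205HG (0.76), and the smallest those of COL1A1 (-0.73), CDCA7 (-0.45), MCM5 (-0.36) and PTRHD1 (-0.36). The differences of CDCA7, MCM5 and PTRHD1 were under the 1.5-fold limit and were not called. ID1, a BMP target on chromosome 20, had 39.4 CPM in high and 25.7 CPM in low KO cells, and 80.3 CPM in high and 89.4 CPM in low WT cells. Its log2 ratio in KO was 0.62, and 0.19 with the score from the 5 genes not on chromosome 20. Its difference ranged from 0.29 to 0.90 over the alternatives. The lowest, in cells of 8000 to 16000 UMIs, is under the 1.5-fold limit. MIR205HG had 102 CPM in high and 115 CPM in low KO cells, and 95.3 CPM in high and 181 CPM in low WT cells. COL1A1, a fibrillar collagen, had 62.6 CPM in high and 109 CPM in low KO cells, and 65.2 CPM in high and 68.2 CPM in low WT cells. Metallothioneins did not all rise in KO high cells. MT1G had 24.0 CPM in high and 32.7 CPM in low KO cells, and 64.9 CPM in high and 83.3 CPM in low WT cells. MT1X had 186 CPM in high and 172 CPM in low KO cells, and 190 CPM in high and 219 CPM in low WT cells. After thinning, MT2A was seen in 18.8% of both high and low KO cells, and in 17.6% of high and 22.0% of low WT cells. Few cells carried much of the MT2A counts, as the top 1% of cells held 43.3% of its UMIs in high and 33.1% in low KO cells, and 28.5% in high and 22.0% in low WT cells. The same held for COL1A1 in KO, as 14 cells held 32.6% of the COL1A1 UMIs of KO high cells and 14 held 60.2% of those of KO low cells, while 11 cells held 7.88% in WT high and 11 held 7.43% in WT low cells. Among KO cells with 3% or more of UMIs from chromosome 20, ranked anew, the COL1A1 log2 ratio of high to low cells was 0.33, against -0.80 over all KO cells. The 6 mesenchymal markers summed to 105 CPM in high and 178 CPM in low KO cells, and 132 CPM in high and 142 CPM in low WT cells. The part of these markers in the high to low ratios was not tested.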

How the data were processed

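Single cells were measured with a 10x Chromium kit for transcript 3′ ends, per the labels' protocols. The submitters' processing notes name Cell Ranger 6.1.2 and the build GRCh38, and the sources used here name no annotation version. The authors deposited unnormalised UMI counts per gene and barcode, whose header names Cell Ranger 4. Day 0 libraries held 78917192 UMIs (KO) and 78774434 UMIs (WT).

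From these, cells were filtered as stated, ranked by score within each library, and counts were summed per class and scaled to 1000000 UMIs. Log2 ratios used a prior count of 0.5. A gene was measured at 10 CPM and called at 1.5-fold with a 95% interval excluding 1. Doublets were kept and no caller was run. The calculation was tested on simulated data. The KO library was ranked apart from the WT library, since the choice of cells fixes 20% of each. Tools were Python 3.11.15, numpy 2.4.6, scipy 1.17.1, pandas 2.3.3 and matplotlib 3.10.9.

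Named genes were the 15 largest and 10 smallest ratios of high to low cells shared by both libraries, the 8 largest and 8 smallest KO to WT ratios in high cells and the 4 largest and 4 smallest differences, all at 50 CPM or more, with up to 4 members per list, the 8 score genes and SIRT1. The cells and gene lists were chosen with earlier results of these data known. Alternatives covered the score genes, thinning, the share taken, scaling, the CPM minimum, depth, deep cells, POU5F1, free RNA and chromosome 20.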

Additional observations from a re-analysis of the deposited data

Results flagged for a closer look

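MT1E, a metallothionein that binds zinc and copper, was called in opposite directions in the KO and WT libraries. It had 73.0 CPM in high and 48.4 CPM in low KO cells, and 53.3 CPM in high and 80.8 CPM in low WT cells. The difference of the log2 ratios was 1.19 and was not tested, since each genotype had 1 library. It ranged from 0.54 to 1.64 over the alternatives tried. Few cells held much of the count, as the top 1% of cells held 40.5% of MT1E UMIs in high and 36.0% in low KO cells, and 27.9% in high and 19.5% in low WT cells. Metallothionein genes are near-identical copies, so reads could be split among them.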

How the results depend on the processing

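No paired analysis was possible because each genotype had 1 day 0 library and the labels give no replicate numbers. Of the summary values recomputed, 72 stayed within 1.5 times or the spread and 38 moved; of single genes and lists 2582 stayed, 643 moved and 4 reversed. The cause was not tested. Without the 3 score genes on chromosome 20, 54 genes were lower in WT high cells, and the depth ratio was 1.32 in KO and 1.21 in WT. With the thinned score, 69 were lower in KO and 53 in WT, with depth ratios of 1.35 and 1.22. Taking 10%, 429 were higher in KO and 315 in WT, the difference was called larger in KO for 121 and smaller for 94, and the WT depth ratio was 1.44. With no minimum, KO had 543 higher and 568 lower, WT 565 and 468, KO over WT in high cells 495 and 923, and the difference 217 and 263. At 50 CPM these were 67 and 26, 56 and 24, 33 and 35, and 10 and 1. The difference gave 83 and 159 in cells of 8000 to 16000 UMIs, and 58 and 42 with free RNA subtracted. KO cells with 3% or more of UMIs from chromosome 20 gave 445 higher and 178 lower, and 98 and 105 for the difference. The common limit on 5 genes gave 19.6% in KO and 18.4% in WT. Reversed were the KIF23 difference (-0.18, 8000 to 16000 UMIs) and, in KO cells with 3% or more from chromosome 20, COL1A1 (0.33), COL1A2 (0.039) and the COL1A1 difference (0.39).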

Other observations

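Of the 153 genes higher in high cells of both libraries, 68 stood in no cell cycle list, and 10 of these reached 50 CPM. PIF1, a DNA helicase, had 119 CPM in high and 36.4 CPM in low KO cells, and 100.3 CPM in high and 42.1 CPM in low WT cells. HP1BP3, a heterochromatin protein related to linker histones, had 139 CPM in high and 71.3 CPM in low KO cells, and 122 CPM in high and 60.4 CPM in low WT cells. CDKN3, a phosphatase that acts on cyclin-dependent kinases, had 125 CPM in high and 71.5 CPM in low KO cells, and 141 CPM in high and 86.7 CPM in low WT cells. The others were ARHGAP11A, DNAJB1, DCAF7, TNRC6C, MYEF2, YTHDC1 and ATF7IP. Of the 72 lower genes 42 stood in no such list. Among those at 50 CPM or more, DUT, which breaks down dUTP, had log2 ratios of -0.76 in KO and -0.61 in WT, and SNHG3, GABPB1-AS1, AC009446.1, CSTF3 and LINC00662 were also lower in both libraries. These genes were grouped after their values were seen.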
